A study of Homo sapiens with 16 samples.

Results

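The protocadherins in these data are the 70 genes, of 23340 gene symbols listed in each deposited table, whose symbol starts with PCDH. Of these, 57 belong to the clustered group: 13 alternate alpha genes, 2 alpha C-type genes, 16 beta genes, 19 gamma A and B genes, 3 gamma C-type genes and 4 rows named or known as pseudogenes. The other 13 stand alone in the genome: 5 delta-1 genes, 5 delta-2 genes and PCDH12, PCDH15 and PCDH20. Protocadherins are single-pass membrane proteins with cadherin repeats outside the cell. The clustered genes lie side by side on the long arm of chromosome 5, and in neurons each cell switches on its own few of them from separate promoters, which lets a cell recognise its own branches. The non-clustered delta genes act in adhesion and sorting of cells, and several are silenced in carcinomas.

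RNA was sequenced from CCLP1 cells, an established human cell line derived from an intrahepatic bile duct carcinoma (cholangiocarcinoma). There are 16 libraries in 3 experiments, 2 to each of 8 groups, and all groups are this 1 line. Experiment 1 compared clones carrying an shRNA against PRH, the homeodomain transcription factor encoded by HHEX, with clones carrying a scrambled, non-targeting shRNA. Each of its libraries is a separate clone, so differences between clones are part of the spread. Experiment 2 compared cells infected with an adenovirus for myc-tagged PRH with cells infected with an empty adenovirus. Experiment 3 crossed the PRH or the empty adenovirus with a control shRNA line or a line labelled NOTCH3 shRNA. The 2 libraries of a group in experiments 2 and 3 come from separate infections of the same cells. They are called A and B here, as names only. The study's title places PRH and NOTCH3 in a feedback loop in cholangiocarcinoma, and the comparisons ask how cells differ when PRH is lowered, raised, or raised on a NOTCH3 shRNA background.

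Values are normalised read counts: the reads of a gene over the size factor of its library. Each table has its own scaling, so groups are compared within a table only. Depth ran from 20795552 to 69899040 reads in genes per library. A gene was tested where it had at least 10 in at least 2 libraries of its table, and was called where limma gave an adjusted p under 0.05 over all genes tested. HHEX averaged 320 ± 8.36 (SD, n = 2) in the PRH shRNA clones and 567 ± 18.2 in their controls, a difference that did not pass (log2 fold change -0.82, SE 0.49, adjusted p = 0.9999, limma). HHEX rose with the PRH virus from 365 to 85981 in experiment 2 from 664 to 279700 in the control shRNA line, and from 198 to 59243 in the line labelled NOTCH3 shRNA. HHEX was lower in the line labelled NOTCH3 shRNA than in the control shRNA line both with the empty virus (log2 fold change -1.74, SE 0.22, adjusted p = 0.000126, limma) and with the PRH virus (-2.25, SE 0.22, adjusted p = 3.61e-05), so comparisons of the lines set cells with unequal PRH transcript against each other. NOTCH3 followed its label only with the PRH virus. With the empty virus it averaged 836 ± 257 in the line labelled NOTCH3 shRNA and 775 ± 90.0 in the control shRNA line (log2 fold change 0.08, SE 0.24, adjusted p = 0.798, limma). With the PRH virus it averaged 923 ± 230 and 2392 ± 137 (-1.39, SE 0.24, adjusted p = 0.00118). The 2 lines of experiment 3 also differed in their cell type markers. The 8 cholangiocyte markers summed to 113489 to 130612 in the 4 libraries labelled NOTCH3 shRNA, while the control shRNA libraries had 7426 and 5196 with the PRH virus and 14591 and 13625 with the empty virus. KRT7 was at 0 in both control shRNA libraries with the empty virus and CFTR at 0 in all 4 control shRNA libraries, while SCTR was at 0 in all 16 libraries. The 9 fibroblast markers summed to 26887 to 36009 in the libraries labelled NOTCH3 shRNA, and in the control shRNA line to 57073 and 41643 with the PRH virus and 106069 and 90115 with the empty virus. In experiment 1 the cholangiocyte sum was 15113 in PRH shRNA clone 1, 44022 in clone 2, and 5726 and 9521 in the control clones, and the fibroblast sum was 26468 and 25878 in the PRH shRNA clones and 46143 and 88170 in the controls. In experiment 2 the cholangiocyte sum was 1464 to 1659 with the PRH virus and 2799 to 3198 with the empty virus. SOX9 made up most of it, at a mean of 1418 and 2738. The fibroblast sum was 30811 to 32537 and 36051 to 36953. The part of these marker differences in the protocadherin results was not tested. In such bulk libraries fewer cells with a transcript and less transcript per cell cannot be told apart.

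Many protocadherins had few or no reads in CCLP1 cells. No read was counted in any of the 16 libraries for 5 members, among them PCDHB1, PCDH8 and PCDH20, and a further 18 clustered members and PCDH10 stayed under 10 in every library. PCDH10 and PCDH8 are delta-2 genes often methylated in tumours. The filter left 27 clustered and 6 other members to test in experiment 1, 21 and 4 in experiment 2, and 31 and 6 in experiment 3. These are the members with enough reads, not the whole family. Only 7 clustered genes had a mean of at least 50 in every group of all 3 tables: PCDHA5, PCDHA11, PCDHA12, PCDHAC1, PCDHAC2, PCDHB2 and PCDHGA8. PCDHGA10 met this in experiments 1 and 3. The 7 genes held 74.4% to 87.2% of the reads of all clustered members in a library, out of 1378 to 4419 such reads. They were picked for high means in every group, so a large share in each library follows from the choice. PCDHGA10, outside the 7, was above the lowest of them in some libraries, such as 317 against 163 in control shRNA library B with the empty virus. The shares are of read totals without correction for transcript length. Alpha and gamma genes each end in exons shared within their cluster, and beta genes are related copies. Whether the counting split or lost their reads was not tested. Of the non-clustered members only PCDH18 had a mean of at least 50 in every group of all tables.

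The switching of clustered genes is known to act at the promoter of each gene, at a conserved element with the core CGCT that the insulator protein CTCF occupies. The sequences are shown to compare the promoters of genes that were read in every experiment with those of genes of the same class with few reads. RefSeq (GRCh38.p14) gave a promoter for 47 of the 57 clustered and 11 of the 13 other members. Where a member had more than 1 entry, the first was used. In the 250 bases before the start, GNCGCT, letters chosen from these promoters themselves, was found on the gene's strand in 43 of the 47 clustered promoters (91.5%), in 0 of the 11 others and in 23.1% of 35116 promoters of the same length. On either strand the shares were 91.5%, 4 of 11 and 37.5%. The 4 clustered promoters with no match were those of PCDHA9, PCDHAC2, PCDHB8 and PCDHGB7. In the 37 clustered promoters with 1 match it began 13 to 201 bases before the start, with a median of 60. The windows below hold 24 bases on each side of the match, in capitals, all on the plus strand of chromosome 5.
PCDHA11 (chr5:140868873-140868926): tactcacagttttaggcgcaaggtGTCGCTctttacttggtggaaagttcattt
PCDHAC1 (chr5:140926210-140926263): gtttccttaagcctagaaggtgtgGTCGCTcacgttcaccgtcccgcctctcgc
PCDHB2 (chr5:141094534-141094587): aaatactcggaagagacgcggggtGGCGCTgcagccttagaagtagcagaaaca
PCDHGA8 (chr5:141392558-141392611): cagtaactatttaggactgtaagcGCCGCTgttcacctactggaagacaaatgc
PCDHA4 (chr5:140806969-140807022): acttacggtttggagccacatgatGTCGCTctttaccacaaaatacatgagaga
PCDHB7 (chr5:141172556-141172609): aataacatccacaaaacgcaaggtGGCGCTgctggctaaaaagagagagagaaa
PCDHGA2 (chr5:141338693-141338746): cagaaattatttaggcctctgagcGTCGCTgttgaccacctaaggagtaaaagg
The first 4 genes had 12043, 6993, 2964 and 4380 reads over the 16 libraries and the last 3 had 178, 5 and 1. The capitals are the same in PCDHA11, PCDHA4 and PCDHGA2, whose read totals were far apart. PCDHB2 has 2 matches, of which the one nearest the median distance is shown.

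With the PRH virus, PCDH1 rose and PCDH18 fell, both in experiment 2 and in the control shRNA line of experiment 3. PCDH1 is a delta-1 protocadherin found at junctions of epithelial cells. In experiment 2 its normalised count was 48.8 and 32.1 with the PRH virus and 12.9 and 4.43 with the empty virus. All values with the PRH virus were above those without, and the log2 fold change was 2.23 (SE 0.56, adjusted p = 0.0411, limma). PCDH1 passed the filter there only through the PRH virus libraries, so the filter set its direction. Control shRNA cells had 92.0 and 70.5 with the PRH virus and 9.22 and 11.3 without, a log2 fold change of 2.86 (SE 0.41, adjusted p = 0.00108). PCDH18, a delta-2 protocadherin whose mouse protein binds the adaptor Dab1, was at 316 and 418 with the PRH virus and 683 and 842 with the empty virus in experiment 2. It fell by 1.06 on the log2 scale (SE 0.19, adjusted p = 0.0133). Control shRNA cells had 1104 and 673 against 2295 and 2176, and it fell by 1.37 (SE 0.32, adjusted p = 0.0124), with no overlap in either experiment. The experiment 2 call of PCDH1 was lost without PRH virus library A or without empty virus library B, and also with no filter on low values, with no variance trend and in DESeq2 (adjusted p up to 0.0866 over all alternatives). The experiment 2 call of PCDH18 was lost with no variance trend (adjusted p = 0.0635). Its call in the control shRNA line was also lost with no variance trend, and without PRH virus library B or either empty virus library (up to 0.0965).

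PCDH9, a delta-1 gene expressed in brain and reduced in liver carcinoma, was lower with the PRH virus in both settings and passed in 1. In the control shRNA line it was at 42.6 and 70.5 with the PRH virus and 456 and 476 with the empty virus. It fell by 3.06 on the log2 scale (SE 0.47, adjusted p = 0.00153, limma), and this call held under all alternatives, with adjusted p up to 0.0152. In experiment 2 it was at 40.8 and 59.0 against 96.0 and 113, a log2 fold change of -1.07 (SE 0.29) that missed the threshold at adjusted p = 0.0526. It passed there with a pseudocount of 5 and without PRH virus library B. PCDH15, which forms the tip links of sensory hair cells, was at 12.8 and 17.4 with the PRH virus in the control shRNA line and 113 and 127 with the empty virus. It fell by 2.92 (SE 0.86, adjusted p = 0.0330), and the call was lost when any 1 of the 4 libraries was left out and with a pseudocount of 0.5 (adjusted p up to 0.199). Both marker sums of the control shRNA line were also lower with the PRH virus, as given above, and their part in the falls of PCDH9, PCDH15 and PCDH18 was not tested. Nearly all of the cholangiocyte sum there was SOX9, which averaged 6295 with the PRH virus and 14043 with the empty virus. KRT7 went the other way, at 6.81 and 13.5 with the PRH virus and 0 in both empty virus libraries. In experiment 2 PCDH15 had 7.75 or less in each library and was not tested. PCDH7, a delta-1 protein that binds the phosphatase PP1 alpha, showed no called change: it was at 398 and 320 against 338 and 361 in experiment 2 and at 40.0 and 35.7 against 71.7 and 40.7 in the control shRNA line.

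**Figure D1:**
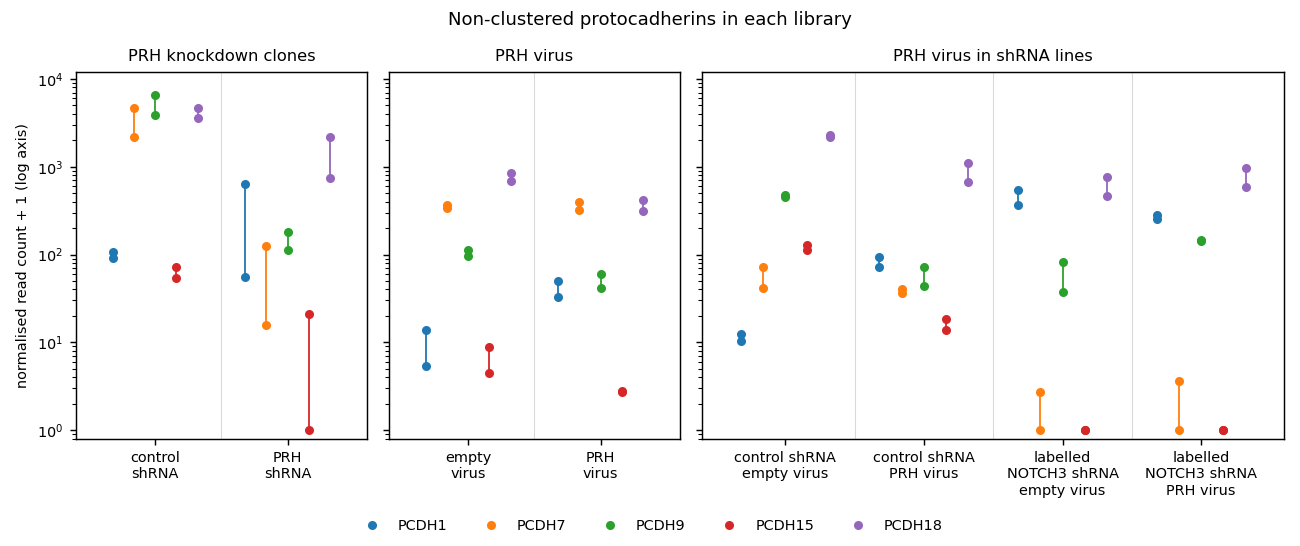
Normalised read count plus 1 of PCDH1, PCDH7, PCDH9, PCDH15 and PCDH18 (log axis) in each library, 1 point per library with a line joining the 2 libraries of a group, in panels for the 3 experiments. PCDH1 is at 4.43 to 12.9 with the empty virus in experiment 2 and 32.1 to 48.8 with the PRH virus, and PCDH15 is at 0 in the 4 libraries labelled NOTCH3 shRNA.

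Over the family, 1 member rose and 3 fell of the 25 tested in experiment 2, where 9.9% of all genes tested rose and 5.73% fell. In the control shRNA line 1 of 37 rose and 3 fell, beside 15.2% and 11.8% of all genes. The calls of the control shRNA line were all among the 6 non-clustered members tested, and 0 of 31 clustered members passed. Of the clustered, 1 was at an unadjusted limma p under 0.05, beside 6041 of 15836 genes. EdgeR called 0 clustered members and DESeq2 PCDHA11 alone, beside 4139 and 4812 genes. Libraries rescaled to equal totals moved the median of all genes in this comparison from 0 to 0.10 on the log2 scale and its calls from 2412 higher and 1870 lower to 2960 and 1272, and kept the sign of each member named here. In experiment 2 the clustered calls were PCDHB14 and PCDHGA8. PCDHB14 was at 3.55 and 2.61 with the PRH virus and 18.7 and 17.7 without, and fell by 2.25 (SE 0.53, adjusted p = 0.0336). It rests on 4 and 3 reads in PRH virus libraries A and B, passed the filter only through the empty virus libraries, and was no longer called without PRH virus library B or in DESeq2. PCDHGA8 was at 131 and 135 against 211 and 225, and fell by 0.70 (SE 0.19, adjusted p = 0.0495), a call lost in 9 of 12 alternatives, leaving out any 1 library included.

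The remaining clustered genes with many reads were not called with the PRH virus, and their differences did not all have one sign. PCDHA11 was at 452 and 485 with the PRH virus and 592 and 724 without in experiment 2 (log2 fold change -0.48, SE 0.15, adjusted p = 0.0780). Control shRNA cells had 927 and 857 against 1322 and 1466 (log2 fold change -0.64, SE 0.24, adjusted p = 0.0757). Both values with the PRH virus were below both without in each experiment, and neither difference passed. The alpha C-type genes had the opposite sign. PCDHAC1 was at 287 and 325 against 221 and 250 in experiment 2 (log2 fold change 0.37, SE 0.17) and at 848 and 751 against 727 and 689 in the control shRNA line (0.17, SE 0.38). PCDHAC2 was at 170 and 188 against 101 and 169 in experiment 2 (0.45, SE 0.28) and at 577 and 431 against 279 and 312 in the control shRNA line (0.76, SE 0.47). None of these passed. PCDHA12 was at 120 and 118 with the PRH virus and 106 and 135 without in experiment 2, and at 199 and 261 against 308 and 350 in the control shRNA line. PCDHA5 was at 57.6 and 73.8 against 83.1 and 87.5 in experiment 2 and at 90.3 and 109 against 118 and 167 in the control shRNA line. PCDHB2 was at 120 and 134 against 146 and 217, and in the control shRNA line at 175 and 116 against 101 and 163. The values of PCDHA12 overlapped in experiment 2 and those of PCDHB2 in the control shRNA line. PCDHGA10 was at 47.0 and 46.0 against 64.4 and 77.5 in experiment 2 and at 125 and 121 against 158 and 317 in the control shRNA line. PCDHGA8, which fell in experiment 2, was at 433 and 236 against 483 and 540 in the control shRNA line (log2 fold change -0.67, SE 0.49, adjusted p = 0.356).

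**Figure D2:**
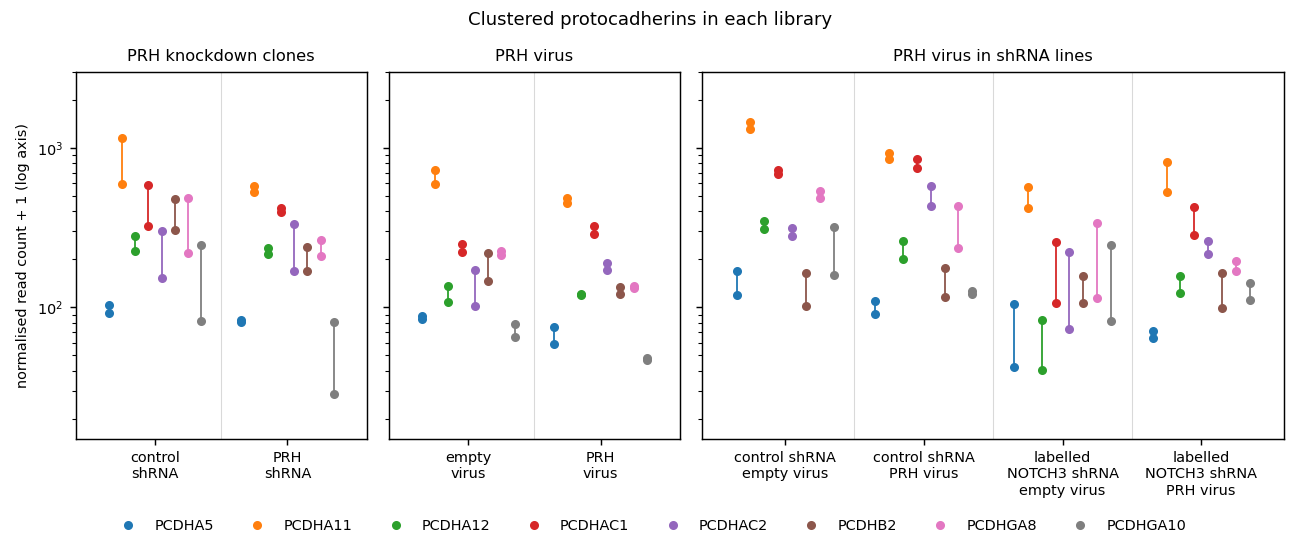
Normalised read count plus 1 of 8 clustered protocadherins (log axis) in each library, 1 point per library with a line joining the 2 libraries of a group, in panels for the 3 experiments. PCDHA11 lies at 421 to 571 with the empty virus in the libraries labelled NOTCH3 shRNA and at 1322 to 1466 in the control shRNA line with it.

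The promoters of PCDH1, PCDH9 and PCDH18 are shown beside a search for the letters ATTAA, which sites bound by the PRH homeodomain contain. In the 250 bases before the start, ATTAA was found on either strand in 22.7% of all promoters and in 1 of the 11 non-clustered members with an entry. PCDH1, PCDH9, PCDH15, PCDH18 and PCDH7 had 0 matches. PCDH15 had more than 1 promoter entry, so only its first was searched and it is not printed. Among the clustered promoters 33 of 47 (70.2%) had at least 1. The absence of a match says only that these letters are not in this window. The last 150 bases before the start follow for PCDH1, which rose, and for PCDH18 and PCDH9, which fell in the control shRNA line, each on the minus strand of its chromosome in GRCh38.p14 from RefSeq, with no capitals as there was no match.
PCDH1 (chr5:141869628-141869777): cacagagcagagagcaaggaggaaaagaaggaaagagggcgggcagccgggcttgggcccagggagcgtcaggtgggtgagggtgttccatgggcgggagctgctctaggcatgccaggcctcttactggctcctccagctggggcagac
PCDH9 (chr13:67230337-67230486): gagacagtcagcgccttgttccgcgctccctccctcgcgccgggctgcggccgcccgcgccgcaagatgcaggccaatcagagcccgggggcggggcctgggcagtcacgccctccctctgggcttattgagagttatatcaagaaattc
PCDH18 (chr4:137532495-137532644): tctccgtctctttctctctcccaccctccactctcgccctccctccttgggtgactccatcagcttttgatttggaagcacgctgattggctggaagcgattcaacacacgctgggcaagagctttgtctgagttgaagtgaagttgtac
GC made up 64.7% of the stretch in PCDH1, 66.7% in PCDH9 and 52.7% in PCDH18.

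In the PRH knockdown clones no protocadherin was called, although the delta-1 genes PCDH9 and PCDH7 lay far lower in both PRH shRNA clones than in both control clones. PCDH9 was at 111 in PRH shRNA clone 1 and 178 in clone 2, while the control clones had 3845 and 6505 (log2 fold change -5.14, SE 0.54, adjusted p = 0.165, limma). PCDH7 was at 124 and 14.9 against 2156 and 4610 (log2 fold change -6.14, SE 1.07, adjusted p = 0.321). Both genes passed when any 1 of the 4 clones was left out (adjusted p up to 0.00913 for PCDH9 and 0.00757 for PCDH7) and in DESeq2. PCDH18 was at 2159 and 740 against 4699 and 3577 (log2 fold change -1.70, SE 0.61, adjusted p = 0.603), and PCDH15 at 20.3 and 0 against 70.2 and 52.5. PCDH1 was at 55.0 in clone 1 and 636 in clone 2 against 106 and 90.7, so the PRH shRNA clones lay on both sides of the controls. Clone 2 was also the one with the cholangiocyte marker sum of 44022, and the fibroblast sums given above were lower in both PRH shRNA clones than in both control clones.

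Limma called 0 of 33 protocadherins and 0% of 14511 genes in this comparison (7 members and 959 genes at an unadjusted p under 0.05). EdgeR called 0 genes and DESeq2 703, with PCDH9, PCDH7 and PCDHB16 as the 3 members, all lower. Among the beta genes, PCDHB9, PCDHB14 and PCDHB16 passed the filter only through the control clones, so the filter set their direction. PCDHB16 was at 0 in both PRH shRNA clones and at 25.6 and 25.8 in the controls, which is at least 7.03-fold lower against a floor of 3 reads per library. PCDHB14 was at 0 and 3.96 against 27.8 and 29.6. PCDHB2, the beta gene with most reads, was at 239 and 168 against 304 and 478 (log2 fold change -0.92, SE 0.58, adjusted p = 0.9999). Of the alpha genes with many reads, PCDHA12 was at 236 and 214 against 225 and 280 (log2 fold change -0.16). PCDHA5 was at 79.6 and 82.2 against 102 and 90.7 (-0.25). PCDHA11 was at 530 and 578 against 590 and 1153 (-0.57, adjusted p = 0.9999, limma). The values of the alpha C-type genes and PCDHGA8 overlapped. Those of PCDHGA10 did not and were lower in the PRH shRNA clones (log2 fold change -1.56, adjusted p = 0.9999, limma). PCDHAC1 was at 394 and 417 against 325 and 585, PCDHAC2 at 169 and 333 against 151 and 301, PCDHGA8 at 263 and 209 against 218 and 487, and PCDHGA10 at 27.5 and 80.2 against 81.2 and 244. The sum over all clustered members was 2387 and 2395 in the PRH shRNA clones and 2503 and 4199 in the controls.

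**Figure D3:**
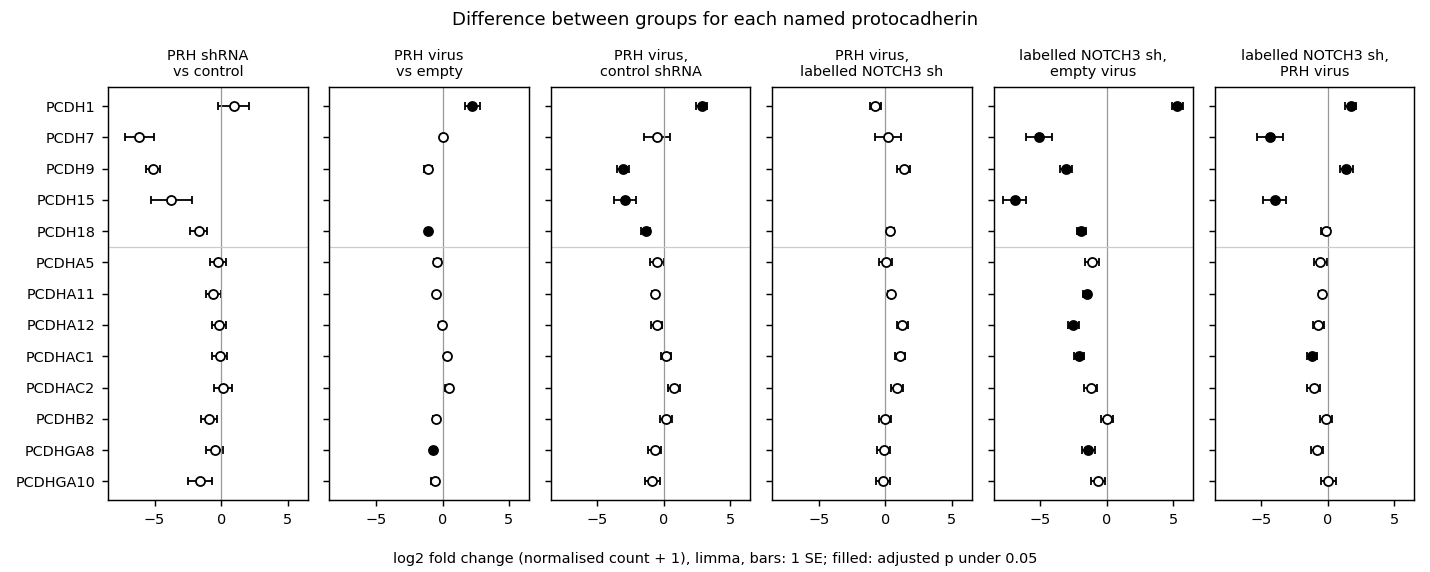
Log2 fold change on the scale of normalised count plus 1 for 13 named protocadherins (rows) in 6 comparisons (panels), with 1 SE from limma as bars and filled points where the adjusted p was under 0.05. PCDH1 lies at 5.33 and PCDH15 at -6.91 between the line labelled NOTCH3 shRNA and the control shRNA line with the empty virus, and PCDH15 is not drawn where it was at 0 in both groups or not tested.

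Between the line labelled NOTCH3 shRNA and the control shRNA line, with the empty virus, 12 of 37 protocadherins were lower and 1 was higher, beside 23.1% of all genes lower and 28.9% higher. PCDH1 was the member that rose: it was at 549 and 368 in the line labelled NOTCH3 shRNA and at 9.22 and 11.3 in the control shRNA line (log2 fold change 5.33, SE 0.41, adjusted p = 6.31e-06, limma). PCDH15 was at 0 in both libraries labelled NOTCH3 shRNA and at 113 and 127 in the control shRNA line, which is at least 39.9-fold lower against a floor of 3 reads per library (adjusted p = 0.000129). PCDH9 was at 81.7 and 36.5 against 456 and 476 and fell by 3.07 (SE 0.47, adjusted p = 0.000465). PCDH7 was at 1.72 and 0 against 71.7 and 40.7 (adjusted p = 0.00192), and PCDH18 at 466 and 766 against 2295 and 2176, a fall of 1.90 (SE 0.32, adjusted p = 0.000852). Each of these 5 calls held under all alternatives. PCDH7 and PCDH15 passed the filter only through the control shRNA libraries, so the filter set their direction. The cholangiocyte and fibroblast marker sums given above moved with this comparison.

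Of the 31 clustered members tested 8 fell here (25.8%), a share near the 23.1% of all genes that were lower. Alternate alpha genes made up 6 of the 8. PCDHA11 was at 421 and 571 in the line labelled NOTCH3 shRNA and at 1322 and 1466 in the control shRNA line, and fell by 1.50 (SE 0.24, adjusted p = 0.000574). PCDHA12 was at 39.6 and 82.1 against 308 and 350, and fell by 2.50 (SE 0.41, adjusted p = 0.000771). PCDHAC1 was at 106 and 255 against 727 and 689, and fell by 2.10 (SE 0.38, adjusted p = 0.00139). These 3 calls held under all alternatives. PCDHGA8 was at 114 and 336 against 483 and 540 (adjusted p = 0.0386), and lost its call with no variance trend and without NOTCH3 shRNA library A or either control library. PCDHA8, PCDHA9, PCDHA10 and PCDHA13 had 0 to 17.2 in the libraries labelled NOTCH3 shRNA and 20.5 to 83.0 in the controls (adjusted p from 0.0188 to 0.0479), and each lost its call when some single library was left out. PCDHA8 and PCDHA10 also lost it in edgeR, in DESeq2, with a pseudocount of 0.5, with no filter on low values and with no variance trend. PCDHA8 and PCDHA9 would not have passed the filter without the control shRNA libraries, so the filter favoured their direction. Among the genes that missed the threshold, PCDHAC2 was at 72.3 and 222 against 279 and 312 (log2 fold change -1.21, SE 0.47, adjusted p = 0.0547), PCDHA5 at 41.3 and 104 against 118 and 167, and PCDHGA10 at 80.9 and 245 against 158 and 317. PCDHB2 did not differ by more than its spread: it was at 106 and 157 against 101 and 163 (log2 fold change 0.00, SE 0.45). The summed clustered count was 1185 and 2322 against 4006 and 4642.

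With the PRH virus in both lines, 5 of 37 protocadherins were lower in the line labelled NOTCH3 shRNA and 2 were higher, beside 21.1% and 26.1% of all genes. PCDH1 was at 281 and 251 against 92.0 and 70.5 (log2 fold change 1.71, SE 0.41, adjusted p = 0.00751, limma) and PCDH9 at 143 and 147 against 42.6 and 70.5 (1.38, SE 0.47, adjusted p = 0.0360). The PCDH9 call was lost with no filter on low values, with no variance trend, without either NOTCH3 shRNA library or without control shRNA library A. PCDH15 was again at 0 in both libraries, at least 4.92-fold below the 12.8 and 17.4 of the control shRNA line (adjusted p = 0.00429). PCDH7 was at 2.61 and 0 against 40.0 and 35.7 (adjusted p = 0.00537). The clustered calls were PCDHAC1, at 286 and 427 against 848 and 751 (a fall of 1.19, SE 0.38, adjusted p = 0.0293), PCDHA4, at 1.74 and 0 against 17.9 and 27.0 (adjusted p = 0.0151), and PCDHB3, at 3.48 and 0 against 22.1 and 11.6 (adjusted p = 0.0331). The calls of PCDHAC1, PCDHA4 and PCDHB3 were each lost without either control shRNA library, and also without NOTCH3 shRNA library A for PCDHAC1 and library B for the others. The call of PCDHAC1 was also lost with no variance trend, that of PCDHA4 in edgeR, and that of PCDHB3 in edgeR and DESeq2. PCDHB3, PCDH7 and PCDH15 passed the filter only through the control shRNA libraries, so the filter set their direction. PCDHA4 would not have passed without those libraries, so the filter favoured its direction. PCDHA11 was at 525 and 816 against 927 and 857 and was not called (adjusted p = 0.155).

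**Figure D4:**
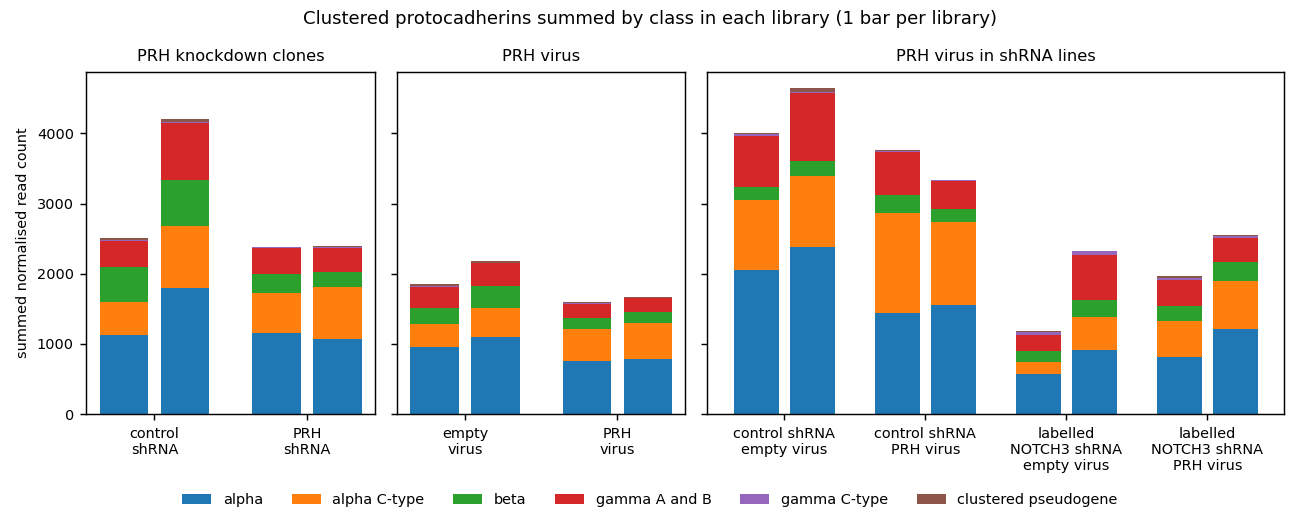
Summed normalised read count of the clustered protocadherins, stacked by class, with 1 bar per library in panels for the 3 experiments. The 2 bars of the line labelled NOTCH3 shRNA with the empty virus reach 1185 and 2322 and those of the control shRNA line 4006 and 4642.

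Within the line labelled NOTCH3 shRNA the PRH virus called 0 of 37 protocadherins by limma, beside 2.21% of all genes. At an unadjusted limma p under 0.05 there were 7 members, beside 2736 of 15836 genes. EdgeR and DESeq2 called 0 members, beside 403 and 1096 genes. PCDH1 was at 281 and 251 with the PRH virus and 549 and 368 without, PCDH9 at 143 and 147 against 81.7 and 36.5, and PCDH18 at 591 and 975 against 466 and 766. The alpha C-type gene PCDHAC1 was at 286 and 427 against 106 and 255 (log2 fold change 1.08, SE 0.38, adjusted p = 0.189). PCDHA12 was at 123 and 156 against 39.6 and 82.1 (1.26, SE 0.41, adjusted p = 0.160), and PCDHA11 at 525 and 816 against 421 and 571. PCDHAC2 was at 214 and 261 against 72.3 and 222, and PCDHB2 at 164 and 98.5 against 106 and 157. The values of PCDHA11, PCDHAC2 and PCDHB2 overlapped. The comparison of the responses of both lines was tested as an interaction, and 3 of 37 members passed, 2 higher and 1 lower, beside 8.39% of all genes in either direction. PCDH9 fell with the virus in the control shRNA line and was at higher values with it in the other, a difference of 4.45 on the log2 scale (SE 0.66, adjusted p = 0.00424). PCDH1 rose with the virus in the control shRNA line and was at lower values with it in the other, a difference of -3.62 (SE 0.58, adjusted p = 0.00597). PCDH18 differed by 1.72 (SE 0.45, adjusted p = 0.0490), a call lost in 10 of 16 alternatives, while those of PCDH9 and PCDH1 held in all 16. NOTCH3 was lower in the line labelled NOTCH3 shRNA with the PRH virus but not with the empty virus, and HHEX and the marker sums also differed. The shRNA target and other differences between the lines therefore cannot be told apart here.

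Small counts set a limit on the rarely read members. In experiment 3 each group held 2 to 4 protocadherins with 0 in 1 library and at least 10 in the other, such as PCDH19 at 11.2 and 0 with the empty virus in the line labelled NOTCH3 shRNA and PCDH17 at 0 and 17.4 in the control shRNA line with the PRH virus. PCDH19, a delta-2 gene mutated in an X-linked epilepsy, and PCDH17 were never tested. PCDH12, the protocadherin of vascular endothelium, was at 23.5 and 35.2 with the PRH virus and 40.4 and 23.9 with the empty virus in the line labelled NOTCH3 shRNA. In the control shRNA line it was at 13.6 and 1.93 and at 19.5 and 0. The difference between the lines with the empty virus was not called (log2 fold change 2.83, SE 1.37, adjusted p = 0.113). The 5 endothelial markers summed to 156 to 320 in the 4 libraries labelled NOTCH3 shRNA and to 0 to 47.7 in the control shRNA libraries, with KDR at 0 in all of them.

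Genes known to bind, insulate, methylate or silence clustered promoters were compared as a list of 30, of which 29 were tested. With the PRH virus 0 of 29 passed in experiment 2, where 9.9% of all genes rose and 5.73% fell. In the control shRNA line 4 rose and 5 fell, beside 15.2% and 11.8% of all genes, with a list median of 0.00 beside 0 over all genes. The DNA methyltransferase DNMT3A averaged 1773 with the PRH virus and 1062 without (log2 fold change 0.74, adjusted p = 0.00207, limma), and DNMT3B averaged 1135 and 471 (1.27, adjusted p = 0.0342). UHRF1, which directs maintenance methylation, averaged 22026 and 16503 (0.42, adjusted p = 0.0101), and TET3, which oxidises methylated cytosine, 2404 and 1628 (0.56, adjusted p = 0.0199). The cohesin subunits RAD21 (13806 and 18225, log2 fold change -0.40) and STAG2 (6342 and 7824, -0.30), the SETDB1 partner ATF7IP (-0.39) and the cohesin loader NIPBL (-0.27) were among the 5 that fell. Between the line labelled NOTCH3 shRNA and the control shRNA line with the empty virus, 10 of 29 rose and 7 fell, near the 28.9% and 23.1% of all genes. DNMT3A averaged 2469 against 1062 (1.22, adjusted p = 2.84e-05), CTCF 8763 against 4740 (0.89, adjusted p = 4.81e-05) and TET2 1858 against 635 (1.57, adjusted p = 0.000192). UHRF1 averaged 9216 against 16503 (-0.84) and TET1 139 against 330 (-1.29, adjusted p = 0.0176). With the PRH virus in both lines 8 rose and 4 fell, beside 26.1% and 21.1% of all genes. In the knockdown 0 passed, beside 0% of all genes.

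The second list held 30 genes found in the tables whose proteins act with or cut protocadherins. In experiment 2, 3 of 28 tested rose and 5 fell, beside 9.9% and 5.73% of all genes. In the control shRNA line 5 of 29 rose and 8 fell, beside 15.2% and 11.8%. PSEN2, a catalytic subunit of gamma-secretase, which cuts protocadherins within the membrane, averaged 2059 with the PRH virus and 1086 without in experiment 2 (log2 fold change 0.92, adjusted p = 0.00728, limma). In the control shRNA line it averaged 2668 and 1405 (0.92, adjusted p = 0.00363). ADAM10, the protease that sheds the outer part of gamma protocadherins, averaged 2766 and 3670 in experiment 2 (-0.41, adjusted p = 0.0369) and 6287 and 9400 in the control shRNA line (-0.58, adjusted p = 0.00131). The actin regulator WASF1, a subunit of the WAVE complex that alpha and delta-2 tails bind, averaged 884 and 1299 in experiment 2 (-0.55, adjusted p = 0.0235) and 2095 and 4565 in the control shRNA line (-1.15, adjusted p = 0.00136). MARCKS, which gamma protocadherins act on through protein kinase C, averaged 515 and 831 (-0.68) and 6460 and 13146 (-1.03). AXIN1, a Wnt pathway protein, averaged 2214 and 1572 (0.49) and 5539 and 3321 (0.74). Between the 2 lines with the empty virus 8 of 29 rose and 8 fell, near the 28.9% and 23.1% of all genes. FYN, a kinase that protocadherin tails bind, averaged 3952 in the line labelled NOTCH3 shRNA and 880 in the control shRNA line (2.17, adjusted p = 1.08e-05), and PTK2B, a kinase that clustered protocadherins inhibit, 1199 against 151 (2.95, adjusted p = 6.67e-05). PPP1CA, the PP1 alpha that PCDH7 binds, averaged 6665 against 11711 (-0.81, adjusted p = 4.43e-05). In the knockdown 0 of 29 passed, beside 0% of all genes. With the PRH virus in both lines 12 of 29 rose and 10 fell, beside 26.1% and 21.1% of all genes.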

How the data were processed

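The submitters' processing notes name Trim Galore, TopHat with hg19, featureCounts and DESeq2. Versions, strand handling and treatment of shared exons were not given in the sources used here. Values in the deposited tables are a signal, in which each library's gene counts were scaled by its own size factor, and whole reads could be recovered for 100% of values within 1e-06. In each file 28 lines with a date in place of a symbol (up to 0.276% of reads) were left out. Limma 3.58.1 was fitted in R 4.3.3 to log2(value + 1) with an intensity trend, with all 8 libraries of experiment 3 in 1 model. The 1 added before the log understates fold changes of low genes. P-values were adjusted by Benjamini-Hochberg over all genes tested. EdgeR 4.0.16 and DESeq2 1.42.0 on the recovered reads were alternatives, as were other pseudocounts (0.5 and 5), no filter or a filter at 50, no trend, equal library totals and leaving out each library. With 2 libraries per group, p-values measure the spread between these clones or infections only. Experiment 2's control column is named after GFP, and the label's word, empty, is used. Members with a group mean of at least 50 or a call are named (at most 12 per comparison), with up to 4 genes per direction of the 2 lists. The members and lists were chosen with earlier results of these data known. The fit was tested on simulated data. Promoters are RefSeq's, in GRCh38.p14, and were not placed on hg19.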

Additional observations from a re-analysis of the deposited data

Results flagged for a closer look

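The response to the PRH virus differed between the 2 lines of experiment 3 for 3 protocadherins, by the interaction term in limma. For PCDH9 the log2 difference was 4.45 (adjusted p = 0.00424), for PCDH1 -3.62 (adjusted p = 0.00597) and for PCDH18 1.72 (adjusted p = 0.0490). Groups of 2 libraries were not examined for single libraries that stand apart.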

How the results depend on the processing

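No called member changed sign under any alternative. Protocadherins called in the PRH knockdown were 0 in limma, 3 in DESeq2, 1 (PCDH9) with clone number as a replicate block, and 2 to 4 when 1 clone was left out, PCDH9 and PCDH7 among them each time. The clones share only a number, so the block is no pairing, and for experiments 2 and 3 no paired analysis was possible because the columns carry no replicate number. With the PRH virus in experiment 2 the count of 4 became 2 with no filter on low values, 2 with a filter at 50, 1 in DESeq2 and 1 to 3 without 1 library. In the control shRNA line 4 became 2 to 3 without 1 library, and in the line labelled NOTCH3 shRNA 0 became 0 to 1, the 1 being PCDHAC1. Between the lines, the 13 calls with the empty virus ran from 9 to 13 without 1 library, and the 7 with the PRH virus became 4 with a filter at 50 and 4 to 7 without 1 library. The 3 interaction calls became 5 in DESeq2, which added PCDHA11 and PCDHA12, and 2 to 4 without 1 library. Over named members and alternatives, 586 values kept their side of the threshold, 78 lost it and 15 gained it.

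The counts of all genes called moved further. The knockdown's 0 became 703 in DESeq2, 10 with the block, and 51 to 607 without 1 clone. Without the variance trend 2073 became 758 in experiment 2, 4282 became 2730 in the control shRNA line, 350 became 82 in the line labelled NOTCH3 shRNA and 1329 became 351 for the interaction. DESeq2 gave 1096 and 2212 for the last 2. Leaving out 1 library gave as few as 1278, 2291, 1 and 500. Under equal library totals the knockdown's median over all genes moved from -0.07 to 0.03. A fit with 1 library in a group assumes that it varies like the others. Members under about 10 reads are limited by depth.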
